A study of Mus musculus with 4 samples.

Results

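The retinoid and ROR nuclear receptor genes described here are 8 genes chosen by name: the retinoic acid receptors Rara, Rarb and Rarg, the retinoid X receptors Rxra, Rxrb and Rxrg, and the retinoic acid receptor-related orphan receptors Rora and Rorb. Every row of these names was taken from the Sp9 peak lists of both stages, with every peak assigned to them. The SP/KLF zinc finger protein Sp9 is a transcription factor of the embryonic ganglionic eminences and of the striatal neurons born there. Sp9-bound DNA was recovered by chromatin immunoprecipitation with a rabbit antibody and sequenced (ChIP-seq), from micro-dissected basal ganglia of CD1 mouse embryos, wild type and with no treatment named, at embryonic day 16.5 (E16.5) and embryonic day 13.5 (E13.5). A ChIP library and an input library were made per stage (1 of each), and the inputs, which had no antibody, entered only through the peak calling. Peaks are listed by gene, each with its distance in bp from that gene's transcription start site (TSS) on the mm9 build. The lists give no height, width, fold enrichment or read total, so depth and peak strength were unknown, and there was no replicate check. Absence from a list means that no called peak was assigned to the gene, and binding below the calling threshold could not be seen.

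Retinoic acid, made from vitamin A, enters the nucleus and binds retinoic acid receptors, which sit on DNA as heterodimers with retinoid X receptors at repeated short sites. Without ligand the heterodimer recruits corepressors, and with ligand it recruits coactivators. Retinoid X receptors also pair with thyroid hormone, vitamin D and PPAR receptors, whereas ROR proteins mostly bind DNA as monomers at a single extended site. In the developing striatum retinoic acid signalling promotes the differentiation of projection neurons, and Rarb and Rxrg are known as the striatal receptors of their families. Rora is known from cerebellar Purkinje cells and Rorb from layer IV of the cortex and from the retina.

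Of the 8 genes, 5 had at least 1 assigned Sp9 peak at E16.5 (62.5%, exact 95% Clopper-Pearson interval 24.5 to 91.5) and 6 at E13.5 (75%, 34.9 to 96.8). Of all 21900 protein-coding genes, 23.6% had an assigned peak at E16.5 and 20.7% at E13.5. Rara, Rarb, Rxra, Rxrb and Rora were in both lists, where 16.3% of protein-coding genes were. Rxrg was in the E13.5 list only, as were 4.39% of protein-coding genes. Rarg and Rorb had no assigned peak in either list. In all, 9 peaks were assigned to these genes at E16.5 and 14 at E13.5, out of 6022 and 5847 peaks assigned to any gene. The intervals cover counting error over genes only, and assignment beyond the promoter favours genes with distant neighbours, so the difference from all genes was not tested.

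**Figure D1:**
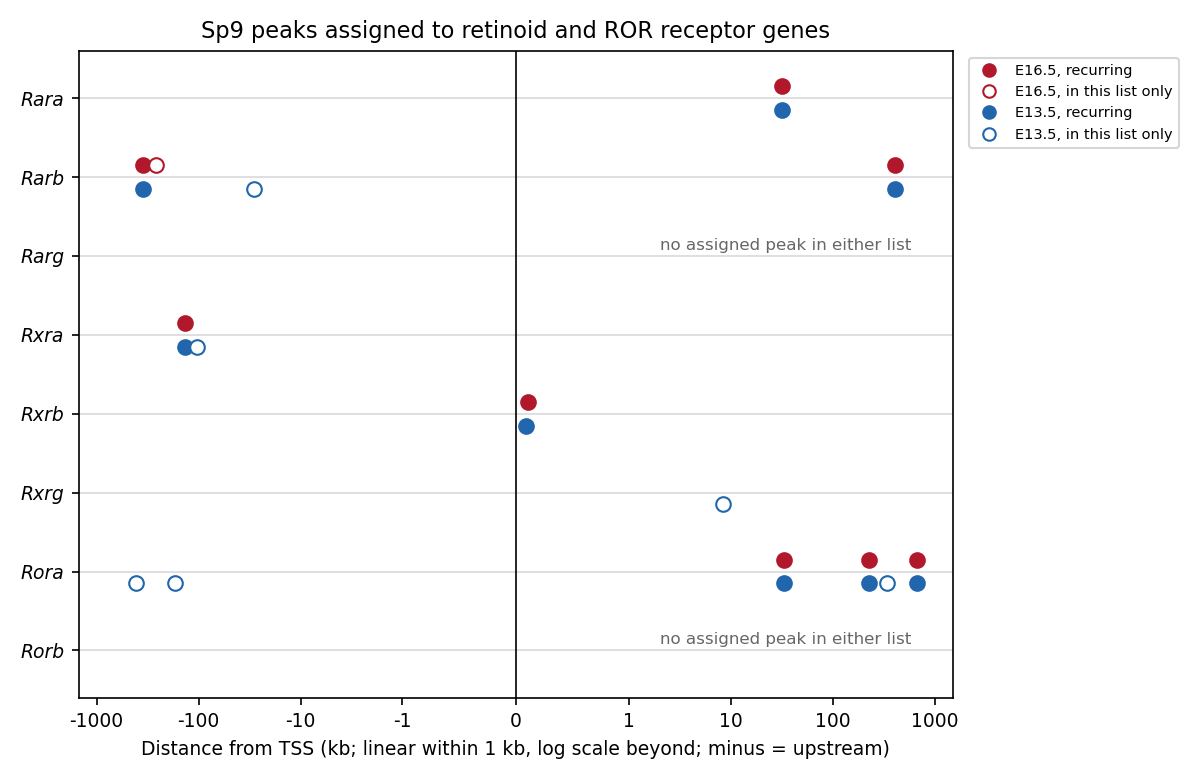
Every Sp9 peak assigned to the 8 receptor genes, by signed distance from the TSS in kb (linear within 1 kb, log scale beyond). Each gene has E16.5 above E13.5, filled points have a partner within 200 bp in the other list, and open points have none. Rxrb has points at the TSS, and Rarg and Rorb have no points.

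The promoter sequences below, from RefSeq (GRCm38.p6, another build than the lists'), show the start site where Sp9 peaks lay and the start site of the classical retinoic acid target of the family. Each runs 5′ to 3′ on the gene's strand, from 250 bases before the start. Capitals mark GC boxes (GGGCGG on either strand), the sites that SP proteins are known to bind, in Rxrb. In Rarb they mark a direct repeat of receptor sites with 5 bases between them (searched on both strands), the known retinoic acid response element through which the gene responds to its own ligand.
Rxrb, chr17:34031562-34031861, plus strand: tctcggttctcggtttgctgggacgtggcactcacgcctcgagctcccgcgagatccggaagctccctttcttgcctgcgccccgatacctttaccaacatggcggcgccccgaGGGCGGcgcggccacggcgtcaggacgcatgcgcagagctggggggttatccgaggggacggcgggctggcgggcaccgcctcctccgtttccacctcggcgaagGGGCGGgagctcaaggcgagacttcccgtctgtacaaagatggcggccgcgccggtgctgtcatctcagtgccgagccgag
Rarb, chr14:16575427-16575726, minus strand: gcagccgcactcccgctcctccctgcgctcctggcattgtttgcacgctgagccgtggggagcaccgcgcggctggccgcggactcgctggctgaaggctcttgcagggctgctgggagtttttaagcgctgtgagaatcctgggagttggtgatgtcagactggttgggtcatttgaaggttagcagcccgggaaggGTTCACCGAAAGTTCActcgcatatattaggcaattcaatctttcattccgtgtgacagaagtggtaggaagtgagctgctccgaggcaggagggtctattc
The Rxrb window held 2 GC boxes, which began 136 and 31 bases before the start. A GC box was present in 46.2% of 21263 windows of protein-coding genes, and in 75.6% of the windows of genes with a promoter peak at E16.5 and 75.7% at E13.5. The repeat in Rarb began 52 bases before the start and had a match in 6 of the 21263 windows (0.0282%). Only this spelling, with any 5 bases between the sites, was searched, so other forms of the repeat were not counted. The Rarb window held no GC box. Table entries were found for 8 of 8 genes, with 16 windows in all, since some genes have several starts. A GC box was found in 5 of the 8 genes, namely Rara, Rarg, Rxra, Rxrb and Rorb, of which Rarg and Rorb had no peak. Counted by window, 8 of the 16 windows held one, near the 46.2% of all windows. Windows 1 and 2 of Rara overlap and hold the same 4 GC boxes, so these boxes count for both windows. Rxra and Rara, with 4 GC boxes in their first windows, had no peak within 1 kb of the starts used in the lists. No window of the 8 genes held TAATTA, the core of homeodomain sites, which 4.53% of all windows held.

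Rxrb, which encodes a widely made retinoid X receptor, was the 1 gene of the 8 with a promoter peak (within 1 kb of the TSS) at either stage. Promoter peaks were present at 9.42% of protein-coding genes at E16.5, at 4.93% at E13.5 and at 3.40% in both lists. The Rxrb peak lay 110 bp downstream of the TSS at E16.5 and 94 bp downstream at E13.5, a difference of 16 bp. It was assigned to 3 genes. Slc39a7, which encodes a zinc transporter, had its TSS 378 bp from the peak at E16.5 and 362 bp at E13.5, and H2-Ke6, which encodes a hydroxysteroid dehydrogenase, 3866 and 3850 bp. The sum of the distances was constant between the lists, which places the Slc39a7 start 268 bp upstream of the Rxrb start in the opposite orientation, a divergent promoter pair with the peak on the Rxrb side. In the RefSeq table the start of the printed Rxrb window lies 3757 bases from the H2-Ke6 start, against 3756 bp in the lists, so the printed window and the lists use the same Rxrb start within 1 base. On that start the peak lay 61 bases past the last base of the printed window at E16.5 and 45 bases past it at E13.5. The Slc39a7 start is 122 bases from that of Rxrb in RefSeq, so the lists use another start for that gene. A second Rxrb window, 538 bases downstream, held 4 GC boxes.

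Rarb, the retinoic acid receptor gene linked to the striatum, had 3 peaks in each list, all far from its TSS except 1. At E16.5 they lay 352038 and 261035 bp upstream and 404356 bp downstream. At E13.5 they lay 352126 and 28683 bp upstream and 404423 bp downstream. The farthest upstream peak recurred between the lists with a difference of 88 bp and the downstream peak with a difference of 67 bp. The peak 261035 bp upstream was in the E16.5 list only, and the nearest E13.5 peak of Rarb was 91091 bp away from it. The peak 28683 bp upstream was in the E13.5 list only and was assigned to no other gene.

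The Rarb locus lies between the thyroid hormone receptor gene Thrb and Top2b, which encodes DNA topoisomerase II beta. Distances of shared peaks placed the Thrb start 1162777 bp upstream of the Rarb start and the Top2b start 453688 bp downstream of it, both in the opposite orientation. On the starts of the lists, the upstream peaks shared with Thrb were nearer to Rarb. The recurring one lay 810739 bp from Thrb at E16.5 and 810651 bp at E13.5, and the E16.5 peak 901742 bp. The downstream peak was nearer to Top2b, at 49332 bp at E16.5 and 49265 bp at E13.5. In RefSeq the start of the printed Rarb window is 210270 bases from the Top2b start, which is 243 kb less than in the lists. The lists therefore measured Rarb distances from a start about 243 kb upstream of the one with the repeat. From the start with the repeat, the recurring upstream peak lay 595 kb away at E16.5. RefSeq has Thrb starts 1085484 and 1406168 bases from that start. The farther one is 243 kb more than in the lists, as large as the Top2b difference, so the lists measured Thrb distances from it. Which gene is nearer to the recurring upstream peak depends on the starts used. The 404 kb peak, 49.3 kb from Top2b, lies beyond both Rarb starts on the Top2b side.

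**Figure D2:**
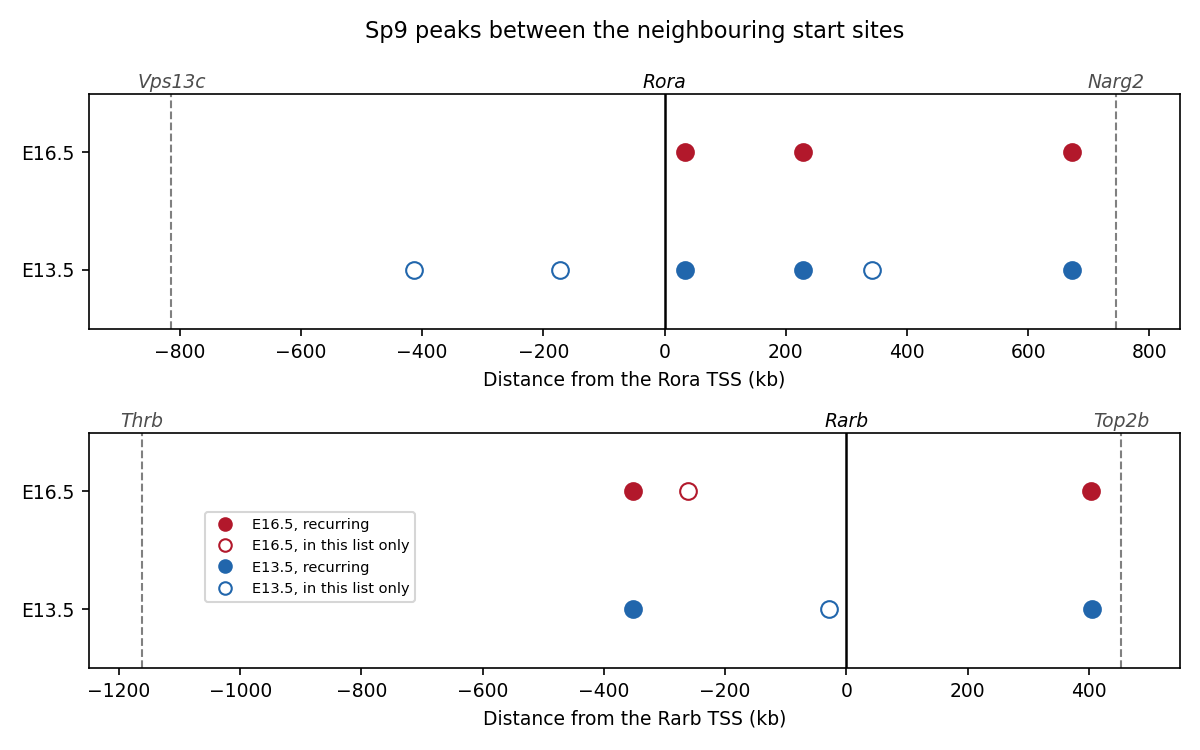
Sp9 peaks at Rora (top) and Rarb (bottom) by distance from the gene's TSS in kb, with E16.5 above E13.5. Solid lines are the TSS of the gene and dashed lines the neighbouring starts placed from shared peaks. The E16.5 peaks of Rora all lie downstream of its TSS, and E13.5 has 2 upstream peaks as well.

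Rara, the most widely made retinoic acid receptor, had a single peak at each stage, 31650 bp downstream of the TSS at E16.5 and 31609 bp downstream at E13.5. The places differed by 41 bp, so the peak recurred. It lay nearer to Gjd3, a gap junction gene in the opposite orientation whose start is 45318 bp from that of Rara, at 13668 bp at E16.5 and 13709 bp at E13.5. RefSeq has several Rara starts, and which one the lists used was not checked. Rarg, the remaining gene of the subfamily, known from skin and cartilage, had no assigned peak.

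Rxra had 1 peak at E16.5, 136913 bp upstream of the TSS. At E13.5 it had a peak 136912 bp upstream, 1 bp from the E16.5 place, and another 104288 bp upstream. All of these were nearer to Wdr5, which encodes a core subunit of histone methyltransferase complexes and starts 162044 bp upstream of Rxra in the same orientation. The recurring peak lay 25131 bp downstream of the Wdr5 start at E16.5 and 25132 bp at E13.5, and the peak in the E13.5 list only lay 57756 bp downstream. Rxrg, the retinoid X receptor linked to the striatum, had no assigned peak at E16.5 and 1 at E13.5, 8421 bp downstream of the TSS. That peak was also assigned to the LIM homeodomain gene Lmx1a, 82753 bp from it. Apart from the Rxrb promoter peak it was the closest of all peaks of the 8 genes to a TSS.

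Rora had the most peaks of the 8 genes, 3 at E16.5 and 6 at E13.5. At E16.5 they lay 33483, 228489 and 672073 bp downstream of the TSS. The E13.5 peaks lay 413303 and 171970 bp upstream and 33443, 228506, 342106 and 672099 bp downstream. All of the E16.5 peaks recurred, with differences of 40, 17 and 26 bp. The 3 peaks in the E13.5 list only were both upstream peaks and the one 342106 bp downstream, and the E16.5 peak nearest to the last of these was 113617 bp away. The starts of Vps13c, a lipid transfer gene, and of Narg2, a subunit gene of the little elongation complex, lie 813390 bp upstream and 744120 bp downstream in the same orientation. The peaks therefore lay in an interval of 1557510 bp (1.56 Mb) that held no other listed start they were assigned to. The farthest peaks were nearer to the neighbours, at 72047 bp from Narg2 at E16.5 and 72021 bp at E13.5, and at 400087 bp from Vps13c at E13.5. Rorb, the related gene, had no assigned peak.

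Peak numbers ran in genome order, as seen in all 2010 gene rows with at least 3 peaks (100%). The numbers of the Rora peaks were consecutive in both lists, as were those of Rarb, and those of Rxra at E13.5. No other numbered peak lay between the outermost peaks of these genes. Among protein-coding genes with a peak, 16.6% had 3 or more at E16.5 and 21.7% at E13.5, and 5.16% had 6 or more at E13.5. The median was 1 peak per gene at both stages. In the 3 counts of peaks at E16.5, peaks at E13.5 and recurring peaks, 7 of 6124 other protein-coding genes with a peak were the same as Rora. Rbfox1, Fancc, Cited2, Lurap1l and Pola1 were the 5 of these whose closest peak came nearest in distance to that of Rora, at 33443 bp. Their closest peaks lay at 17058, 416, 1, 93390 and 128911 bp, so the placement was not alike. With 2 libraries this likeness rests on 3 small counts.

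Taking all peaks of the 8 genes, 8 of 9 E16.5 peaks had an E13.5 partner within 200 bp (88.9%, exact Clopper-Pearson interval 51.8 to 99.7). Of the E13.5 peaks, the same 8 of 14 had one (57.1%, 28.9 to 82.3). Of all peaks, 56.2% recurred at E16.5 and 57.9% at E13.5. The E16.5 interval includes the share of all peaks, and so does the E13.5 interval. Both are wide and treat the peaks as independent, although Rora and Rarb gave several each, so they cannot decide whether recurrence differed. Among gene-peak pairs beyond 100 kb, where 6 of 9 and 9 of 14 of the receptor peaks lay, 71.1% recurred at E16.5 and 56.7% at E13.5. Recurring peaks of the receptor genes differed in place by 1 to 88 bp, with a median of 33 bp, against a median of 37 bp over the 5786 recurring gene-peak pairs of all genes. Peaks found at 1 stage only were 1 at E16.5, at Rarb, and 6 at E13.5, of which 3 were at Rora and 1 each at Rarb, Rxra and Rxrg. Whether peaks in 1 list only differ in binding could not be tested, since the lists hold no heights.

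**Figure D3:**
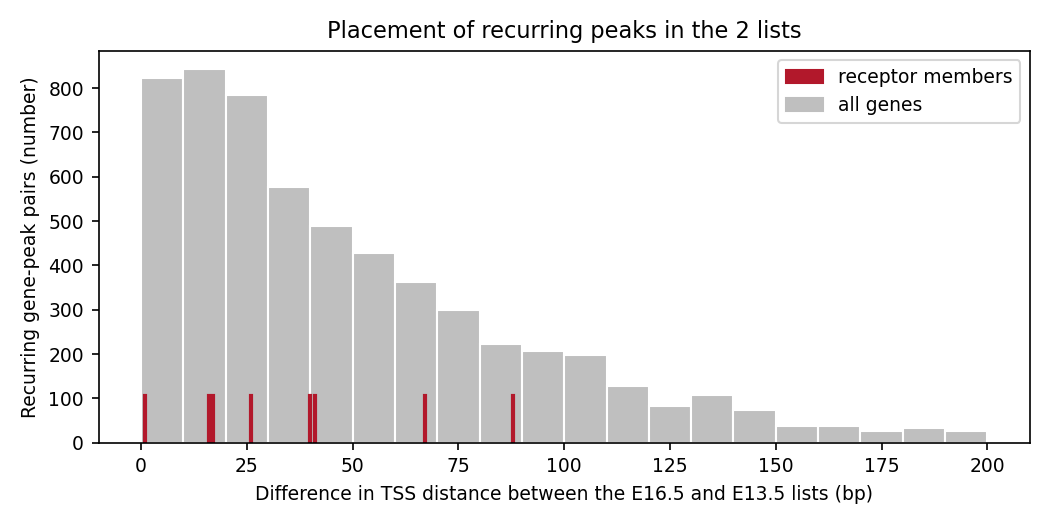
Difference in TSS distance, in bp, between the E16.5 and E13.5 lists for recurring gene-peak pairs; grey bars count the 5786 pairs of all genes and red ticks mark the 8 pairs of the receptor genes. The red ticks lie between 1 and 88 bp.

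Most peaks of the receptor genes lay beyond 100 kb from their TSS, all of these at Rarb, Rxra and Rora. The shares were 66.7% at E16.5 (29.9 to 92.5) and 64.3% at E13.5 (35.1 to 87.2). Of all gene-peak pairs the shares were 46.0% at E16.5 and 56.4% at E13.5. The intervals treat the peaks as independent, although Rora and Rarb gave several each, and the difference was not tested. A peak within 50 kb was present at 3 of 8 genes at E16.5 (37.5%, 8.52 to 75.5; 15.1% of protein-coding genes) and 5 of 8 at E13.5 (62.5%, 24.5 to 91.5; 10.8% of protein-coding genes). Rara, Rxrb and Rora had one at both stages, as did 7.79% of protein-coding genes, and Rarb and Rxrg had one at E13.5 only, where 3.02% of protein-coding genes had one at that stage only. Measured from the RefSeq start with the repeat, the Rarb peak would lie 272 kb upstream, and 3 of the 8 genes would have a peak within 50 kb at E16.5 and 4 at E13.5. At E16.5, 5 of 9 peaks had the receptor gene as their nearest listed TSS (55.6%), and at E13.5 8 of 14 had (57.1%). Over all gene-peak pairs, 61.8% at E16.5 and 58.8% at E13.5 were with the nearest TSS. All 9 peaks at E16.5 and 13 of 14 at E13.5 were assigned to a second gene as well, compared with 76.1% and 82.1% of all gene-peak pairs at E16.5 and E13.5.

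**Figure D4:**
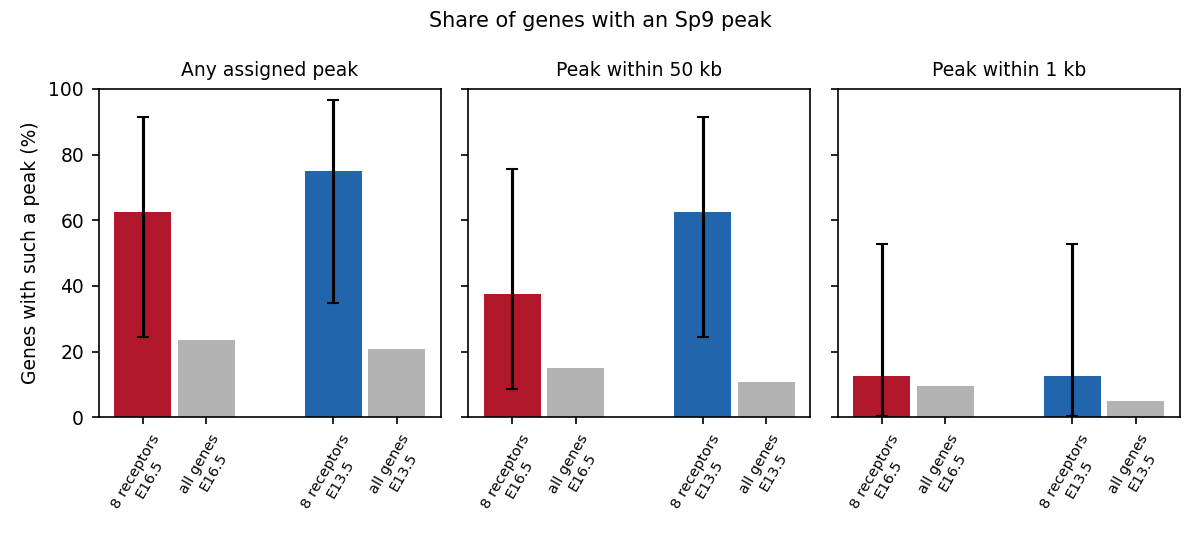
Percentage of genes with an Sp9 peak at any distance, within 50 kb and within 1 kb of the TSS, for the 8 receptor genes (coloured bars with exact 95% intervals) beside all 21900 protein-coding genes (grey). E16.5 is left of E13.5. At 1 kb the receptor bars stand at 12.5% at both stages, on 1 gene.

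The 48 nuclear receptor genes listed include the 8 retinoid and ROR genes. Of the 48, 20 had an assigned peak at E16.5, 19 at E13.5 and 16 in both lists. Of the 40 without the 8, 15 had one at E16.5, 13 at E13.5 and 11 in both lists. The shares of all protein-coding genes were 23.6%, 20.7% and 16.3%. By the number of peaks over both lists Rora had rank 3, and Rarb had as many as Nr2f1, after Nr2f2. The estrogen-related receptor gene Esrrg had 7 peaks at E16.5 and 8 at E13.5, of which 5 recurred, and Nr5a2 had 8 and 7, of which 6 recurred. The 40 receptors outside the retinoid and ROR group had 34 gene-peak pairs at E16.5 and 36 at E13.5, and the 21 recurring ones were 61.8% and 58.3% of these. Thrb is among the 40, and all its peaks are also upstream Rarb peaks, so they count in both groups. Of the 40, 6 had a peak within 50 kb at E16.5 and 5 at E13.5, close to the 15.1% and 10.8% of all protein-coding genes. Those with one in both lists were Esrrg, Esrrb, Nr2f1 and Ppard. Nr2f1, a COUP-TF orphan receptor of the caudal and ventral forebrain, had a promoter peak 871 bp upstream at E16.5, and its closest E13.5 peak was 31432 bp downstream.

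**Figure D5:**
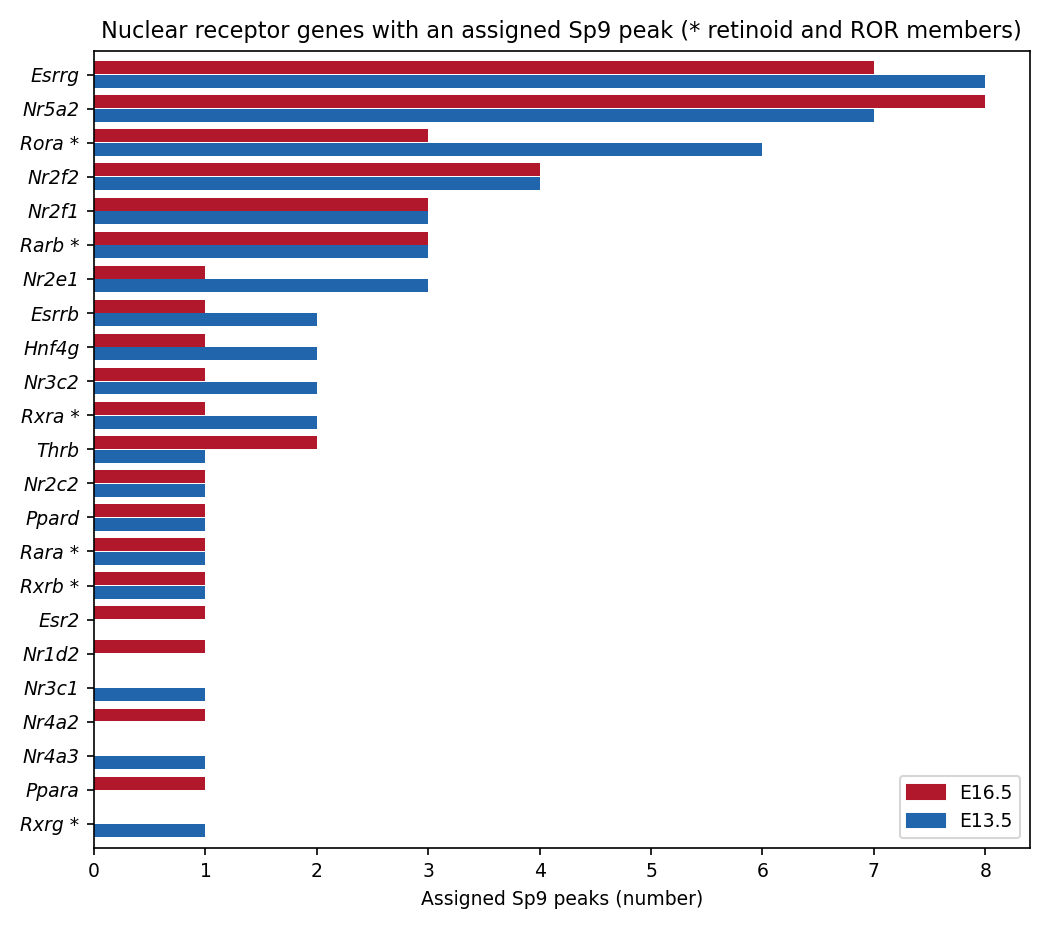
Number of Sp9 peaks assigned to each of the nuclear receptor genes with any, out of 48 listed, with E16.5 bars above E13.5 bars; asterisks mark the retinoid and ROR genes. Rora has 3 peaks at E16.5 and 6 at E13.5, after Esrrg and Nr5a2.

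Of 13 known or proposed heterodimer partners of the retinoid X receptors, 4 had an assigned peak at E16.5 and 2 at E13.5, where 23.6% of protein-coding genes had one at E16.5 and 20.7% at E13.5. Ppard, which encodes a fatty acid-activated receptor, had a promoter peak 136 bp upstream of the TSS at E16.5 and 179 bp upstream at E13.5. Thrb was in both lists through the upstream Rarb peaks. Of 3 ROR-related and clock receptors, Nr1d2, a repressor that competes with ROR proteins for the same sites, had a promoter peak 55 bp upstream in the E16.5 list, with no E13.5 peak. Both RefSeq promoters are shown with GC boxes (GGGCGG on either strand) in capitals, since the listed peaks fall within these windows if the lists use the same starts, which was not tested for these genes.
Ppard, chr17:28232504-28232803, plus strand: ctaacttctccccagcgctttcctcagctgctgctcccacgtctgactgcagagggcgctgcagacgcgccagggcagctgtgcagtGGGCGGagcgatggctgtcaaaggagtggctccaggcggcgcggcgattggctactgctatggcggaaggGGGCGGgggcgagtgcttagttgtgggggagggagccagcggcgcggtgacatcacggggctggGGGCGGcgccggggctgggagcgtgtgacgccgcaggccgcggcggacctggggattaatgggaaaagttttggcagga
Nr1d2, chr14:18239057-18239356, minus strand: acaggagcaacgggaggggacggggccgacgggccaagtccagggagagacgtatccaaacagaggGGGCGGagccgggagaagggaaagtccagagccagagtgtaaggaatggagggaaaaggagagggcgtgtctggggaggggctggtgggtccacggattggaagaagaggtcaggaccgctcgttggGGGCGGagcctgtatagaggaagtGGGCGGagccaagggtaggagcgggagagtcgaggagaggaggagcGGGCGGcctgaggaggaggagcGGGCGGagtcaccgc
Ppard held 3 GC boxes and Nr1d2 held 5.

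Of 21 genes that make, carry or clear retinoic acid, 3 had a peak within 50 kb at E16.5 and 1 at E13.5, and none in both lists, while 15.1% and 10.8% of protein-coding genes had one at E16.5 and E13.5. Rdh10, which carries out the first step from retinol, had a promoter peak 431 bp upstream in the E16.5 list, with no E13.5 peak. The retinoic acid-degrading enzyme genes Cyp26a1 and Cyp26b1 had only distant peaks. At Cyp26a1 they lay 212129 and 223433 bp downstream at E16.5, and 212107 and 223493 bp downstream at E13.5. At Cyp26b1 a peak lay 257126 bp upstream at E16.5, and peaks lay 257159 and 358120 bp upstream at E13.5. Cyp26c1 had none.

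Of 14 corepressor and coactivator genes that act with these receptors, 8 had a peak within 50 kb at E16.5 and 3 at E13.5, where 15.1% and 10.8% of protein-coding genes had one. A promoter peak was present at 6 of the 14 at E16.5 and 1 at E13.5, against 9.42% and 4.93% of protein-coding genes at E16.5 and E13.5. Tbl1xr1, a subunit of the corepressor complex, had a promoter peak at both stages, 66 bp upstream at E16.5 and 320 bp upstream at E13.5, too far apart to count as recurring. Ep300, an acetyltransferase coactivator, had peaks 173 and 978 bp upstream at E16.5 and a peak 1041 bp upstream at E13.5, just outside the promoter limit. Nrip1, a ligand-dependent corepressor, had a promoter peak 74 bp upstream at E16.5 only, beside a peak 21244 bp upstream that lay at 21248 bp at E13.5. Ncoa2 and Ncoa6, both coactivators, had promoter peaks 8 and 23 bp upstream at E16.5 only, and the corepressor subunit gene Tbl1x had one 162 bp upstream. These lists were described by their counts, and no difference between stages was tested.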

How the data were processed

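The authors deposited lists in text form with no standard unit: per the file headers and rows, a gene name followed by the numbered peaks assigned to that gene and each signed TSS distance on mm9. A regulatory domain covered 5000 bp before and 1000 bp after a TSS, grew to at most 1000000 bp, and could be a curated one, per the file headers. MACS2 2.1.0, BWA 0.6.2, bcl2fastq 1.8.4 and CASAVA 1.8.2 are in the submitters' processing notes, with no roles; the calling threshold was not stated there. Depth per library was unknown.

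Lettered entries of a peak number were counted once; no peak of the 8 genes had any. A peak recurred when its gene had a peak in the other list at a TSS distance within 200 bp of its own, matched nearest first and one to one. The matching code was run on simulated lists in which no peak moved by a distance near this limit. That run checks the code and says nothing about the recurrence counts. Of 5463 names at E16.5, 5330 matched RefSeq genes (GRCm38.p6, used for names and promoter sequence), 326 through a synonym, and of 4826 at E13.5, 4698, 281 through a synonym. Orientation and spacing of neighbouring starts came from the sum or difference of the distances of shared peaks. With 1 library per stage no test was made; shares carry exact binomial intervals. The rule named all 8 genes, other listed receptor and pathway genes with a peak within 50 kb in both lists or a promoter peak, and the 5 genes most like the one with most peaks. It also named neighbours that share a peak. The Cyp26 genes and Nr5a2 were named after their values were seen. The genes, lists and rules were chosen with earlier results of these data known. Alternatives were other windows, promoter widths, matching limits, the nearest TSS and a distance limit. The software was matplotlib 3.10.9, numpy 2.4.6, scipy 1.17.1 and Python 3.11.15.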

Additional observations from a re-analysis of the deposited data

How the results depend on the processing

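Of 35 recomputed counts, 27 stayed within 1.5 times the reported value and 8 did not. Giving each peak only to its nearest TSS left 3 of the 8 genes with a peak at E16.5 and 4 at E13.5. The E13.5 count, lowered from 6, still counted as within 1.5 times. Genes with a peak within 50 kb were then 2 at E16.5 and 4 at E13.5. There were 5 peaks at E16.5 and 8 at E13.5, with 4 recurring. The peaks of Rara and Rxra went to Gjd3 and Wdr5, and the downstream peak of Rarb to Top2b. The farthest peaks of Rora went to Narg2 and Vps13c. Within 10 kb, 1 gene had a peak at E16.5 and 2 at E13.5, and between 5 kb before and 1 kb after the TSS 1 gene had one at E16.5 and 1 at E13.5. The count within 50 kb from the RefSeq start of Rarb was added after the data were seen. The promoter counts kept their value under every alternative run, and 8 recurring peaks were found within 100 bp, 500 bp and 1 kb alike. No paired analysis was possible because each stage has 1 ChIP library and no result comes from a test. Unknown depth limits any reading of a gene without a peak.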
